A study of Schizosaccharomyces pombe with 9 samples.

Results

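Poly(A) RNA from fission yeast, Schizosaccharomyces pombe, carrying a single-residue substitution in the chromatin remodeler Mit1 was compared with poly(A) RNA from yeast carrying the unsubstituted protein. Both strains express Mit1 joined to TetR, the bacterial repressor that binds tet operator DNA, so the fusion is shared by the groups and only the K587A change separates their labelled genotypes. The comparison uses 3 libraries labelled tetrmit1k587a (called K587A here) and 3 labelled tetrmit1 (called TetR-Mit1), which are 6 of the 9 samples of the series. The remaining group carries TetR-Mit1 with clr4oe, which the labels do not spell out. Its 2 libraries with a column in the count table entered the same fit, and the third is not analysed here. All cultures grew in YEA medium to log phase at 32 °C. The descriptions give 1 strain number per genotype, and a difference between strains cannot be told apart from one between genotypes. The labels do not say that replicates were separate cultures, and the p-values measure only the spread between these libraries.

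Mit1 is the ATP-dependent remodeler subunit of SHREC, a complex that also holds the histone deacetylase Clr3 and acts in heterochromatin, where histone H3 is methylated on lysine 9 by Clr4. Remodelers of this family use ATP to move or evict nucleosomes, and the series describes the study as one of how Mit1 lets H3K9 methylation propagate. In rich medium, growing fission yeast keeps genes for ribosomes and fermentation high, while genes for stress defence, starvation, mating and use of other nutrients are held low until the MAP kinase Sty1, the transcription factor Ste11 or nutrient sensors call on them.

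The 6 libraries held between 10367168 and 15920802 counts. Pearson correlations of log2 CPM (read counts scaled to library size, with edgeR's TMM factors) were 0.9972 to 0.9980 within groups and 0.9807 to 0.9823 between them. The 50 most abundant genes held 19.1% to 19.3% of counts in TetR-Mit1 and 22.4% to 22.8% in K587A. Of 4915 genes, 4887 passed the filter on low counts. At an adjusted p under 0.05 by edgeR's quasi-likelihood test, 52.3% of tested genes differed, 27.3% (1333 genes) higher in K587A and 25% (1224) lower. The split depends on scaling: with library totals alone, an alternative chosen after seeing the data, 502 genes were higher and 2515 lower, and the median log2 fold change over all genes moved from 0.0058 to -0.15. Changes are therefore relative to the bulk of genes. Differences of at least 1.5-fold were fewer, at 5.67% of genes, and lay mainly on the lower side, with 1.51% higher (74 genes) and 4.15% lower (203). Differences of at least 2-fold covered 1.8% of genes, 19 higher and 69 lower. Fold changes are log2, K587A minus TetR-Mit1, with the standard error (SE).

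The transcript of the altered gene, mit1, was present in every library, at 387, 393 and 379 CPM in TetR-Mit1 and 532, 521 and 549 CPM in K587A. It was higher in K587A (log2 fold change 0.47 ± 0.035 SE, adjusted p = 2.37e-11), and the groups did not overlap. Gene counts do not show the substitution, so they check the label no further, and mit1 overlaps another annotated gene. Among 36 tested genes for heterochromatin proteins, 8 were higher and 5 lower, a share below that over all genes. The lower count was 3 without TetR-Mit1 replicate 2 or K587A replicate 1, and with library totals alone 2 were higher and 15 lower. The methyltransferase gene clr4 had a log2 fold change of 0.048 and the H3K9me reader gene swi6 one of 0.041, neither past the threshold, while clr3 was 0.13 and past it. With library totals alone swi6 and clr3 turned negative, and swi6 passed as lower. The orotidine decarboxylase gene ura4, which may also be a reporter or marker copy that the counts do not separate, showed the largest rise among genes at 5 CPM or more, from 2.77 ± 0.588 to 29.9 ± 3.28 CPM (mean ± SD, n = 3 per group). The nearby gene pmp20 rose from 16.1 ± 2.04 to 73.0 ± 4.59 CPM (n = 3 each).

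**Figure D1:**
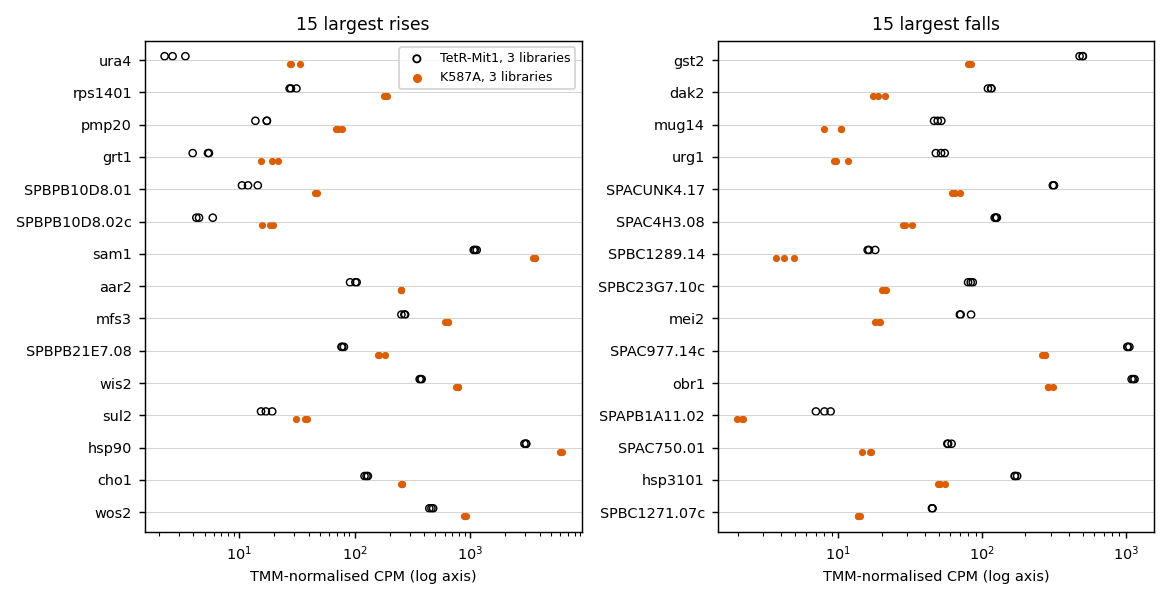
TMM-normalised CPM on a log axis for the 15 largest rises (left) and 15 largest falls (right) among genes at or above 5 CPM with groups that do not overlap. Open circles are the 3 TetR-Mit1 libraries and filled circles the 3 K587A libraries. The falls include gst2, dak2, mug14, urg1 and mei2, and the rises include sam1, hsp90, wis2, sul2 and cho1.

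Among the rising genes, those of sulfate assimilation and the methyl cycle moved together. In this route sulfate is taken up, activated and reduced to sulfide, which is built into homocysteine, and homocysteine is methylated to methionine and turned into S-adenosylmethionine, the donor for most methyltransferases. The list was itself drawn up after the values were seen. Of its 27 genes, 21 were higher (77.8%) and 5 lower (18.5%), against 27.3% and 25% over all genes. The median was 0.50 against 0.0058 over all genes. In the tenth of tested genes with the highest mean CPM, 67.7% were higher, with a median of 0.21. Whether abundance has a part in the rise was not tested. The list took 1.4% to 1.45% of all counts in the TetR-Mit1 libraries and 2.08% to 2.16% in the K587A libraries.

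The gene for S-adenosylmethionine synthetase, sam1, measured 1072, 1103 and 1138 CPM in TetR-Mit1 and 3619, 3466 and 3666 CPM in K587A. All K587A libraries lay above all TetR-Mit1 libraries, a 3.25-fold rise (log2 fold change 1.70 ± 0.035 SE, adjusted p = 1.05e-22). Uptake moved with it: sul2, a sulfate transporter, measured 17.0, 15.4 and 19.3 CPM in TetR-Mit1 and 31.1, 36.9 and 38.9 CPM in K587A (log2 fold change 1.04 ± 0.10 SE, adjusted p = 2.1e-09), and the second transporter gene sul1 rose by 0.50. Of the reducing steps, the sulfite reductase gene sir1 rose by 0.73 and met1, which makes the siroheme of that enzyme, by 0.77. The activating enzymes rose less, with sua1 (ATP sulfurylase) at 0.29 and met14 (adenylyl-sulfate kinase) at 0.35, and met16, the PAPS reductase gene between them and sulfite, fell (-0.34). Homocysteine synthase, met17, went from 95.5 ± 0.639 to 184 ± 8.17 CPM (n = 3 each). The methionine synthase gene met26 went from 3925 ± 58.1 to 6414 ± 216 CPM (n = 3 each).

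One-carbon units for that methylation come from serine and glycine. The serine hydroxymethyltransferase gene shm1 measured 1571, 1572 and 1636 CPM in TetR-Mit1 and 3034, 3008 and 3110.0 CPM in K587A (log2 fold change 0.94 ± 0.032 SE, adjusted p = 5.35e-18), with every K587A library above every TetR-Mit1 library. The glycine cleavage genes gcv1, gcv2 and gcv3 rose by 0.48, 0.63 and 0.59. The methylenetetrahydrofolate reductase genes went opposite ways, met9 to 0.65 and met11 to -0.24. The phospholipid methyltransferase genes cho1 and cho2, which act from phosphatidylethanolamine towards phosphatidylcholine, rose by 1.02 and 0.80. The gene for adenosylhomocysteinase, SPBC8D2.18c, which splits the by-product of methylation, rose by 0.70. The other lower members were met6 (-0.45), cys12 (-0.24) and ado1 (-0.10). Without K587A replicate 2, cys12 and ado1 did not pass and 3 members were lower, and ado1 did not pass without TetR-Mit1 replicate 2. The genes sul1, met14, met11, cho2 and SPBC8D2.18c overlap other annotated genes, so their counts are uncertain to that extent.

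**Figure D2:**
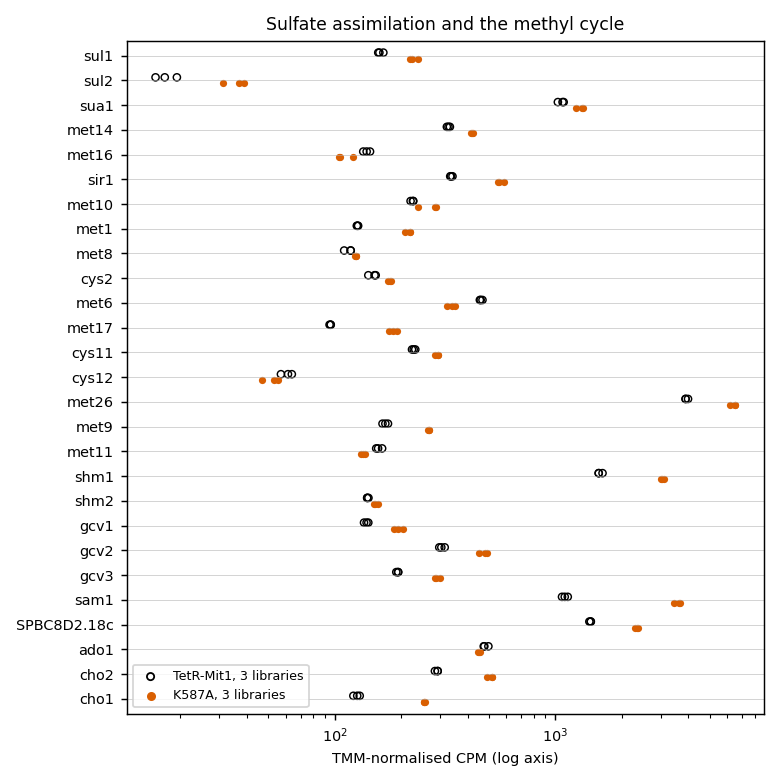
TMM-normalised CPM on a log axis for the 27 genes of sulfate assimilation and the methyl cycle, from sulfate uptake (top) to phospholipid methylation (bottom). Open circles are the 3 TetR-Mit1 libraries and filled circles the 3 K587A libraries. The sets of circles are separated at sam1, shm1, met26 and cho1, while met16, met6 and met11 lie lower in K587A.

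Genes for chaperones, which fold proteins, were mostly higher. Of 31 tested genes, 25 were higher (80.6%) and 3 lower (9.68%), against 27.3% and 25% over all genes. The median was 0.27, and with library totals alone 17 were higher and 5 lower. In the tenth of tested genes with the highest mean CPM (391 and above), 67.7% were higher, with a median of 0.21. Whether abundance has a part in the chaperone rise was not tested. The chaperone list's share of counts went from 2.89% to 2.95% in the TetR-Mit1 libraries to 3.84% to 3.93% in the K587A libraries. The cytosolic chaperone gene hsp90 measured 3036, 2946 and 3054 CPM in TetR-Mit1 and 6031, 6155 and 6198 CPM in K587A. The groups were far apart, a 2.03-fold rise (log2 fold change 1.02 ± 0.032 SE, adjusted p = 7.93e-19). Also on the list, the p23 gene wos2 rose by 0.97, the adaptor gene sti1 by 0.73 and the ATPase activator gene aha1 by 0.56. The cyclophilin gene wis2, which is not on the list, rose by 1.05. The Hsp70 gene ssa2 went from 5195 ± 107 to 10002 ± 27.9 CPM (n = 3 each), and the small heat shock gene hsp16 from 371 ± 20.5 to 617 ± 24.6 CPM (n = 3 each). Mitochondrial members rose too, hsp10 by 0.68, ssc1 by 0.45 and mcp60 by 0.43. Of the CCT ring, which folds actin and tubulin, cct1, cct2, cct3, cct4, cct5, cct6 and cct8 were higher by 0.10 to 0.29. The remaining gene, cct7 (-0.0093), did not pass the test. With library totals alone, cct4 and cct6 turned negative, cct2, cct3 and cct5 lost their calls, and cct7 passed as lower. The call of cct4 was lost without TetR-Mit1 replicate 2 or 3 or K587A replicate 3. The gene of their regulator, hsf1, fell (-0.27). The genes ssa2, hsp10, ssc1, mcp60, aha1 and hsf1 overlap other annotated genes.

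All 136 tested cytosolic ribosomal protein genes were higher, with a median of 0.42. In the tenth of tested genes with the highest mean CPM, 67.7% were higher, with a median of 0.21, or 0.12 without cytosolic ribosomal protein genes. Whether abundance has a part in the rise was not tested. The ribosomal protein list took 14.7% to 15.4% of all counts in the TetR-Mit1 libraries and 18.0% to 18.8% in the K587A libraries. Many of these genes come as near-identical pairs whose reads may be shared. The lowest was rpp202, a P-stalk protein gene, at 0.11, with overlapping groups, and rps1401, at 2.67, stood far above the rest. The call of rpp202 was lost in 8 alternative fits, DESeq2 and 4 that leave out a library (TetR-Mit1 replicate 2 or 3, K587A replicate 1 or 2) among them, and its sign turned with library totals alone. The count of higher members was 133 to 136 over the alternatives. The gene rps1401 overlaps aar2, a splicing factor gene that rose by 1.35. The rise did not extend to the whole of ribosome assembly: of 129 ribosome biogenesis genes, 40 were higher and 17 lower, with a median of 0.034. The higher share, 31%, was near the 27.3% over all genes, and the lower share was 13.2% against 25%. The balance of these genes turned with library totals alone, to 8 higher and 62 lower. Mitochondrial ribosomal protein genes were mostly not called, with 18 higher and 7 lower of 78. The higher count was 10 without TetR-Mit1 replicate 1 or K587A replicate 3 and 11 with DESeq2, and with library totals alone 2 were higher and 31 lower. Of 49 initiation and elongation factor genes, 30 were higher and 3 lower, but the median of 0.12 turned to -0.03 with library totals alone, so no direction is given for that list.

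Carbon metabolism divided by pathway. Of 22 genes for glycolysis and fermentation, 13 were higher (59.1%) and 3 lower, with a median of 0.21. Over all genes 27.3% were higher. Among the tenth of genes with the highest mean CPM, 67.7% were higher, with a median of 0.21, or 0.12 without cytosolic ribosomal protein genes. Whether abundance has a part in the rise was not tested. The list's share of counts went from 6.86% to 6.96% in the TetR-Mit1 libraries to 8.46% to 8.55% in the K587A libraries. The phosphoglycerate mutase gene gpm1 measured 3505, 3319 and 3294 CPM in TetR-Mit1 and 6216, 5884 and 5959 CPM in K587A (log2 fold change 0.84 ± 0.035 SE, adjusted p = 3.43e-16), with no overlap between groups. The phosphoglycerate kinase gene pgk1 went from 6380.3 ± 98.0 to 9999 ± 145 CPM (n = 3 each). Aldolase (fba1, 0.64), triose phosphate isomerase (tpi1, 0.61), hexokinase 2 (hxk2, 0.61), enolase (eno101, 0.52), pyruvate kinase (pyk1, 0.47) and pyruvate decarboxylase (pdc101, 0.38) rose with them. The lower members were the aldehyde dehydrogenase gene atd1 (-1.28), the second enolase gene eno102 (-0.79) and the alcohol dehydrogenase gene adh4 (-0.60). With library totals alone the list stood at 10 higher and 7 lower.

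Genes for other carbon sources went the other way. Of 27 genes for glycerol, trehalose and alternative sugars, 6 were higher (22.2%) and 19 lower (70.4%), with a median of -0.31. Over all genes 27.3% were higher and 25% lower. The dihydroxyacetone kinase gene dak2 measured 116, 109.7 and 115 CPM in TetR-Mit1 and 17.5, 21.3 and 18.7 CPM in K587A. This was a 5.91-fold fall (log2 fold change -2.56 ± 0.069 SE, adjusted p = 4.66e-20), and its paralog dak1 fell from 939 ± 26.1 to 458 ± 7.29 CPM (n = 3 each). Glycerol is oxidised to dihydroxyacetone by the product of gld1, which fell by 0.77, and glycerol phosphate by that of gut2, which fell by 1.06. The glycerol phosphate dehydrogenase genes that make glycerol split, gpd1 to 0.30 and gpd2 to -0.24. The galactose genes gal7 and gal10 fell by 0.61 and 0.52, and the gluconeogenic gene fbp1 by 0.34, a call lost without TetR-Mit1 replicate 3. Of the transcription factors of glucose repression, scr1 fell by 0.46 and rst2 by 0.19. The genes dak1, dak2, gal10, rst2, gpm1 and atd1 overlap other annotated genes.

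Hexose transporter genes fell in 7 of 8 cases (87.5%, against 25% over all genes), with a median of -0.43. The high-affinity glucose symporter gene ght1 measured 103, 91.6 and 91.6 CPM in TetR-Mit1 and 44.5, 42.1 and 38.5 CPM in K587A (log2 fold change -1.18 ± 0.061 SE, adjusted p = 1.75e-14), with no overlap. The gluconate symporter gene ght3 fell by 1.18 and ght2 by 0.76, while the most abundant transcripts of the family moved least, ght5 by -0.23 and ght8 by -0.086. The call of ght8 was lost with upper-quartile scaling and without TetR-Mit1 replicate 2 or 3 or K587A replicate 2, which left 6 of 8. The eighth, ght7, was near 1 CPM and did not pass the test.

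In the tricarboxylic acid cycle, which oxidises acetyl groups in mitochondria, 5 of 19 genes were higher and 10 lower, with a median of -0.11. The higher share, 26.3%, was near the 27.3% over all genes, and the lower share was 52.6% against 25%. With library totals alone 0 were higher and 14 lower. The entry enzyme, citrate synthase, had the largest fall: cit1 went from 521 ± 9.63 to 361 ± 13.0 CPM (n = 3 each). The succinate dehydrogenase genes sdh1, sdh2 and sdh3 were slightly higher (0.13, 0.11 and 0.22). With library totals alone sdh1 and sdh2 turned negative and sdh3 lost its call. The call of sdh2 was also lost without TetR-Mit1 replicate 1 or 2. Of 56 nuclear genes for the respiratory chain, 4 were higher (7.14%) and 23 lower (41.1%). All lay within a log2 change of -0.31 (atp17, an ATP synthase subunit) to 0.23 (atp18). The higher count was 2 without TetR-Mit1 replicate 2 or 3 or K587A replicate 1 or 2 and 0 with library totals alone, and atp18 lost its call without TetR-Mit1 replicate 3 or K587A replicate 2.

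**Figure D3:**
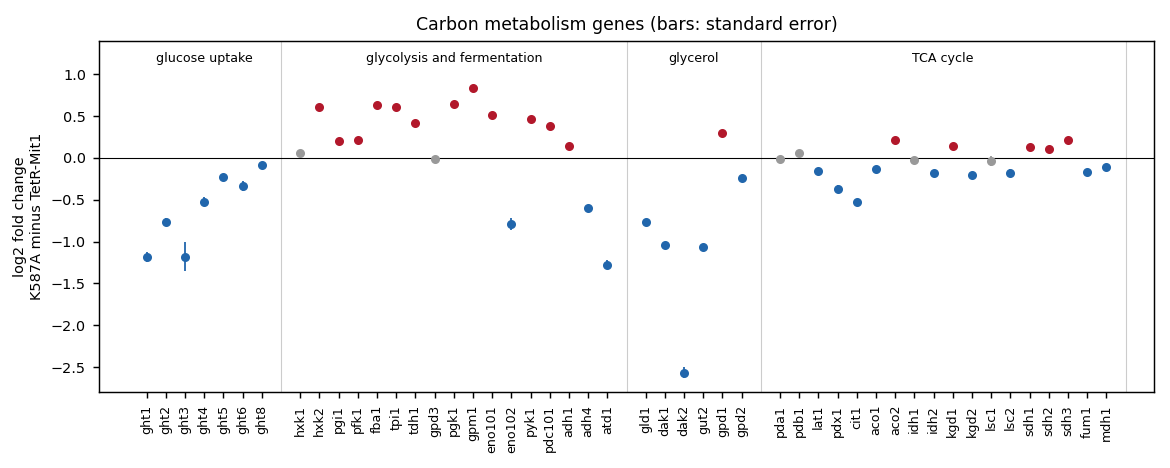
Log2 fold change, K587A minus TetR-Mit1, with its standard error as bars, for genes of glucose uptake, glycolysis and fermentation, glycerol use and the tricarboxylic acid (TCA) cycle. Red points are higher and blue points lower at an adjusted p under 0.05, and grey points did not pass. Most glycolytic genes lie above 0, all 7 plotted transporters below it, and dak2 is the lowest point.

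Genes of DNA synthesis and septum cleavage also held rises. Of 25 genes of the MBF transcription complex and S phase, 12 were higher (48%) and 2 lower (8%). Over all genes the shares were 27.3% and 25%, and with library totals alone the list counts were 7 and 9. The ribonucleotide reductase gene cdc22 measured 475, 478 and 495 CPM in TetR-Mit1 and 834, 855 and 867 CPM in K587A (log2 fold change 0.82 ± 0.034 SE, adjusted p = 2.81e-16), with no overlap. The replication licensing genes cdt1 and cdc18 rose by 0.63 and 0.45, and the MBF target tos4 by 0.60. The genes of the MBF core, cdc10 (0.016), res1 (-0.008) and res2 (-0.074), did not pass the test. With library totals alone all of them passed as lower. Of 11 histone genes, 9 were higher (81.8%), led by hht1 (0.69) and hhf1 (0.65), and 1, hht2, was lower (-0.31). Histone genes of 1 type are near-identical copies, so the split between copies is uncertain.

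The cell wall list had 15 higher (41.7%) and 12 lower (33.3%) of 36, against 27.3% and 25% over all genes. The list turned to 9 higher and 17 lower with library totals alone. Its higher members included genes of cell separation: the glucanase genes that split the septum, eng1 (0.57) and agn1 (0.44), along with adg1 (0.81), adg2 (0.71) and adg3 (0.50). The lower members included the glucanase genes bgl2 (-0.96), exg3 (-0.51) and eng2 (-0.41) and the chitin synthase gene chs1 (-0.47). The agn1 gene overlaps another annotated gene. In 38 genes of mitosis and cytokinesis, 9 were higher and 10 lower, below the share over all genes. The lower count was 4 without TetR-Mit1 replicate 3 and 6 without K587A replicate 1.

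Stress defence genes were mostly lower. Of 31 targets of the Sty1-Atf1 stress pathway, 4 were higher (12.9%) and 23 lower (74.2%), with a median of -0.51. Over all genes 27.3% were higher and 25% lower. The list's share of counts went from 1.38% to 1.4% in the TetR-Mit1 libraries to 0.963% to 0.991% in the K587A libraries. The glutathione S-transferase gene gst2 measured 476, 501 and 499.8 CPM in TetR-Mit1 and 83.0, 81.1 and 80.2 CPM in K587A. Every K587A library lay far below every TetR-Mit1 library, a 6.04-fold fall (log2 fold change -2.59 ± 0.041 SE, adjusted p = 9.49e-25). The quinone reductase gene obr1 measured 1147, 1124 and 1095 CPM in TetR-Mit1 and 310.0, 289 and 288 CPM in K587A (log2 fold change -1.92 ± 0.037 SE, adjusted p = 3.69e-23). The catalase gene ctt1 went from 562 ± 7.95 to 255 ± 10.6 CPM (n = 3 each). Further falls were those of plr1, a pyridoxal reductase gene (-1.17), zym1, a metallothionein gene (-0.96), and sod1, a superoxide dismutase gene (-0.78). The higher members were hsp16 (0.73), hsp104 (0.44), gpd1 (0.30) and tps1 (0.15), of which hsp16 and hsp104 are chaperone genes and tps1 turned negative with library totals alone. The atf1 transcript (0.08) did not pass the test.

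The redox and glutathione list shares 8 genes with the stress list and had 3 higher (10.3%) and 20 lower (69%) of 29. Over all genes 27.3% were higher and 25% lower. Outside those 8, the first enzyme of the pentose phosphate route, zwf1, fell by 0.62, the transcription factor gene pap1 by 0.51, the glutathione reductase gene pgr1 by 0.43 and the thioredoxin reductase gene trr1 by 0.33. Glutathione synthesis fell at gcs1 (-0.28) and gcs2 (-0.34). The higher members were pmp20, with the largest rise of the list and the values given above, the thioredoxin gene trx1 (0.47) and the sulfide-quinone oxidoreductase gene hmt2 (0.30). The peroxiredoxin gene tpx1 (-0.065) did not pass, except without K587A replicate 1 or with library totals alone. Annotated overlaps make zwf1, gcs2, trx1 and hmt2 uncertain. Of 20 oxidoreductase genes whose substrate is not annotated, 11 were lower (55%) and 4 higher (20%). The higher count was 2 without TetR-Mit1 replicate 1 or K587A replicate 1 or 2. The falls were led by the flavin oxidoreductase gene SPBC23G7.10c (-2.00) and the aldo/keto reductase gene SPAC750.01 (-1.87). The glyoxalase gene hsp3101 fell by 1.72, and the aldo/keto reductase gene SPAC977.14c went from 1035 ± 18.4 to 269 ± 7.21 CPM (n = 3 each).

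**Figure D4:**
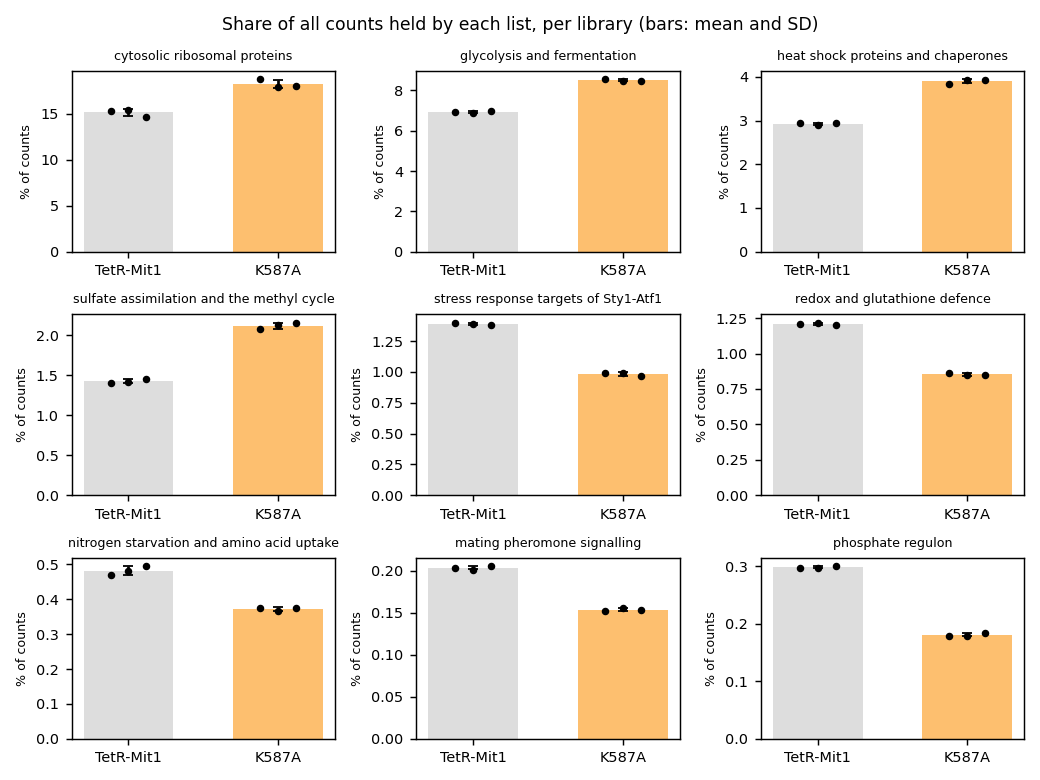
Percent of all counts held by 9 of the functional lists in each library, without any scaling. Bars are group means with SD and points the 3 libraries of a group. The 4 lists of the upper and middle rows for ribosomal proteins, glycolysis, chaperones and the methyl cycle are higher in every K587A library, and the other 5 lists are lower in every K587A library.

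Starvation and mating genes formed the next lower group. Fission yeast starts mating when nitrogen runs out, through Ste11, which activates mating genes and mei2, whose product starts meiosis. Of 29 genes of nitrogen starvation and amino acid uptake, 1 was higher (3.45%), 15 were lower (51.7%) and 13 were not called. Over all genes 27.3% were higher and 25% lower. The list median was -0.12, so the falls named here are larger than that of a typical member. The gene mei2 measured 83.7, 70.0 and 70.8 CPM in TetR-Mit1 and 19.4, 17.8 and 19.1 CPM in K587A. The groups did not overlap, and the change was a 3.99-fold fall (log2 fold change -2.00 ± 0.083 SE, adjusted p = 2.95e-16). The gene ste11 measured 161, 175 and 191 CPM in TetR-Mit1 and 79.8, 63.5 and 76.7 CPM in K587A (log2 fold change -1.27 ± 0.065 SE, adjusted p = 1.75e-14). Permease genes fell as well, isp5 for amino acids by 1.65, per1 for amino acids by 1.14 and amt1 for ammonium by 1.17. The higher member was isp4, an oligopeptide transporter gene (0.93). Genes of allantoin and urea use, dal1 (0.11), dal51 (0.05) and ure2 (0.092), and the factor gene gaf1 (0.074) did not pass the test. With upper-quartile scaling ure2 passed, and without TetR-Mit1 replicate 3 gaf1 did.

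Of 26 genes of pheromone signalling, 2 were higher (7.69%) and 15 lower (57.7%), with a median of -0.26. Over all genes 27.3% were higher and 25% lower. Falls covered the arrestin-like adaptor gene ste7 (-1.22), the MAPK adaptor gene ste4 (-1.20), the P-cell factor gene map1 (-1.08), the G protein gene gpa1 (-0.63) and the MAPK kinase gene byr1 (-0.48). The pheromone receptor genes differed, map3 being higher (0.30) and mam2 not past the test (-0.16). The pheromone genes mfm1, mfm2, mfm3 and map2 also did not pass. Without K587A replicate 3 or with library totals alone mam2 passed as lower, and without TetR-Mit1 replicate 1 mfm3 passed. The kinase gene pat1, whose product holds Mei2 inactive, fell (-0.79). Later meiotic genes were mostly not called: of 15 meiotic transcripts that the RNA-binding protein Mmi1 removes, 1 was higher and 2 lower, with mei4 at -0.92 and ssm4 at -0.60. The higher count was 4 without K587A replicate 1 and 2 without TetR-Mit1 replicate 1. The genes ste4, map3 and mei4 overlap other annotated genes.

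Phosphate genes fell in 6 of 10 cases (60%, against 25% over all genes) and rose in 2 (20%, against 27.3%). The higher count was 1 without TetR-Mit1 replicate 2 or 3 or K587A replicate 1. The acid phosphatase gene pho1 measured 1434, 1425 and 1418 CPM in TetR-Mit1 and 640.3, 629.9 and 658 CPM in K587A (log2 fold change -1.15 ± 0.033 SE, adjusted p = 1.4e-19), with no overlap between groups. The glycerophosphodiester transporter gene tgp1 fell by 1.44 and the polyphosphate polymerase gene vtc4 by 0.59. The transporter gene pho842 went from 265 ± 9.17 to 132 ± 6.62 CPM (n = 3 each). The main transporter gene, pho84, rose by 0.38, and the gene of the activator Pho7 fell by 0.30. The transporter gene pho841, not on the list, went from 545 ± 16.6 to 229 ± 9.6 CPM (n = 3 each). The tgp1 gene overlaps an annotated gene on the opposite strand.

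Membrane transporters as a whole were lower in 95 (52.5%) and higher in 31 (17.1%) of 181 cases, against 25% and 27.3% over all genes. The largest rise of the list was 2.09, at SPBPB8B6.02c, next to the transcription factor gene grt1 on chromosome II. Other higher members, besides those named, were mfs3, annotated as a spermidine transporter (1.24), and SPBPB10D8.01, annotated as a cysteine transporter (1.90). The zinc transporter gene zrt1 rose by 0.81, and both zrt1 and SPBPB10D8.01 overlap other annotated genes. Of 18 iron genes, 4 were higher (22.2%) and 11 lower (61.1%). The heme uptake gene shu1 measured 6.54, 8.36 and 7.62 CPM in TetR-Mit1 and 0.822, 0.328 and 0.713 CPM in K587A, low but without overlap (log2 fold change -3.61 ± 0.29 SE, adjusted p = 1.41e-10), while the ferroxidase gene fio1 rose (0.71). Zinc and copper genes had 4 higher and 6 lower of 17 (1 and 13 with library totals alone). These are 23.5% and 35.3%, against 27.3% and 25% over all genes.

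In nucleotide metabolism, the uracil-regulated genes fell. The gene urg1, for a GTP cyclohydrolase, measured 51.8, 54.9 and 47.6 CPM in TetR-Mit1 and 9.38, 9.64 and 11.7 CPM in K587A (log2 fold change -2.35 ± 0.10 SE, adjusted p = 2.65e-16), and the groups did not overlap. The gene urg2, for a putative uracil phosphoribosyltransferase, fell by 1.57, urg3 by 0.33 and the uracil permease gene fur4 by 0.66. De novo pyrimidine synthesis had ura1 and ura3 lower (-0.24 and -0.35), and ura2 (0.011) and ura5 (-0.071) did not pass. With library totals alone ura2 and ura5 passed as lower. Over 30 purine and pyrimidine genes, 8 were higher (26.7%, near the 27.3% over all genes) and 14 lower (46.7% against 25%).

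Amino acid synthesis genes were more often lower than higher. Of 71 genes, 21 were higher (29.6%, near the 27.3% over all genes) and 33 lower (46.5% against 25%). Some of the higher ones are members of the methyl cycle. Arginine synthesis fell at arg12 (-0.74), arg5 (-0.72), arg1 (-0.41) and arg4 (-0.41). The carbamoyl phosphate synthase subunit gene arg5 went from 298 ± 12.8 to 181 ± 4.15 CPM (n = 3 each). Glutamate dehydrogenase fell for both genes, gdh2 by 1.21 and gdh1 by 0.36, each overlapping another annotated gene. Histidine synthesis was mixed, his1 at 0.49 and his2 at -0.36.

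The wtf genes are a family that includes spore-killing meiotic drivers and their suppressors. They were lower in 12 of 15 cases (80%, against 25% over all genes) with none higher, and the median was -0.57. Their levels were low: wtf5 measured 14.1, 15.6 and 15.8 CPM in TetR-Mit1 and 7.81, 8.46 and 5.91 CPM in K587A (log2 fold change -1.01 ± 0.14 SE, adjusted p = 1.32e-06). Wtf genes resemble each other closely, so reads may be shared and the members are not independent. Autophagy genes were lower in 12 (42.9%, against 25% over all genes) and higher in 3 of 28 (10.7%, against 27.3%). The protease gene atg4 was at -0.55 and atg6 at -0.53. The higher count was 1 without TetR-Mit1 replicate 2 or K587A replicate 1 or 2.

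Further genes among the largest falls included a pair of adducin genes. The genes mug14, a member of the stress list, and SPBC1289.14 are both annotated as adducins, proteins tied to the actin cytoskeleton. The gene mug14 measured 49.1, 52.0 and 46.3 CPM in TetR-Mit1 and 10.5, 8 and 10.5 CPM in K587A (log2 fold change -2.36 ± 0.10 SE, adjusted p = 6.82e-16), and SPBC1289.14 went from 16.8 ± 1.09 to 4.25 ± 0.612 CPM (n = 3 each). The groups did not overlap in either. The dehydrogenase family gene SPACUNK4.17 went from 313 ± 2.79 to 65.8 ± 4.47 CPM (n = 3 each), and SPAC4H3.08, annotated as a 3-hydroxyacyl-CoA dehydrogenase, from 125 ± 2.16 to 29.9 ± 2.36 CPM (n = 3 each). The N-acetyltransferase gene SPBC1271.07c fell by 1.69, and the esterase/lipase gene SPAPB1A11.02 fell from 7.94 ± 0.925 to 2.1 ± 0.0971 CPM (n = 3 each). Genes annotated only as sequence orphans or conserved fungal proteins were lower in 95 (32.2%) and higher in 46 (15.6%) of 295 cases. Over all genes 25% were lower and 27.3% higher. With library totals alone the list counts were 156 lower and 19 higher.

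The rises also held a pair of overlapping genes on chromosome II, SPBPB10D8.01 and the arylsulfatase gene SPBPB10D8.02c. The first measured 11.9, 10.5 and 14.4 CPM in TetR-Mit1 and 45.7, 46.8 and 45.9 CPM in K587A (log2 fold change 1.90 ± 0.10 SE, adjusted p = 1.1e-14), and the second rose by 1.88. The transcription factor gene grt1 went from 4.92 ± 0.844 to 18.7 ± 3.21 CPM (n = 3 each). No K587A library of these genes fell among the TetR-Mit1 libraries.

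DNA-binding transcription factor genes were lower in 30 (38.5%) and higher in 16 (20.5%) of 78 cases, against 25% and 27.3% over all genes. Besides ste11, map1 and mei4, falls included the zinc finger factor gene rsv2 (-0.60) and the bZIP factor genes atf21 (-0.49) and atf31 (-0.48), and rises included ams2 (0.42), a factor of histone genes. Lipid synthesis had 8 higher (32%) and 10 lower (40%) of 25, or 4 and 17 with library totals alone. There the phosphatidylserine synthase gene pps1, which feeds the route methylated by the products of cho1 and cho2, rose by 0.53, while the biotin synthase gene bio2 (-0.46) and the lipase genes ptl1 (-0.33) and ptl2 (-0.35) fell. The genes rsv2, atf31, pps1, ptl1 and ptl2 overlap other annotated genes.

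Some lists held smaller shares of called genes, both directions together, than the 52.3% over all genes. Of 44 proteasome genes, 8 were higher (5 without TetR-Mit1 replicate 1) and 9 lower (5 without K587A replicate 2). Of 67 splicing genes, 14 were higher and 14 lower (9 without K587A replicate 3). Of 33 tRNA synthetase genes, 11 were higher and 3 lower. DNA repair and replication had 19 higher (11 without TetR-Mit1 replicate 2) and 5 lower (3 without K587A replicate 1) of 64. None of these 4 lists has a direction that holds across scalings: with library totals alone the higher and lower counts were 0 and 30 for the proteasome, 3 and 32 for splicing, 3 and 14 for tRNA synthetases, and 3 and 29 for DNA repair and replication. The 50 lists together hold 188 of the 277 genes that differed by at least 1.5-fold.

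**Figure D5:**
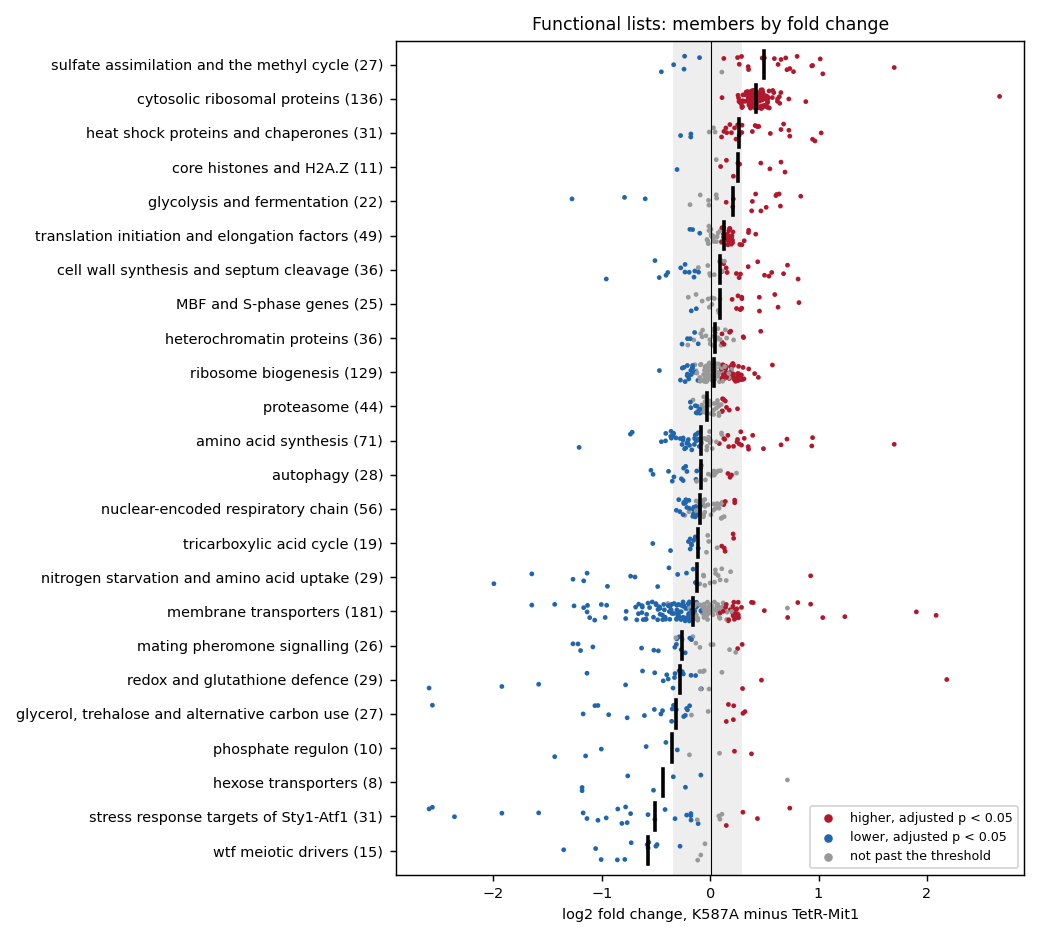
Log2 fold change, K587A minus TetR-Mit1, of each tested member of 24 functional lists, ordered by median, with the number tested in parentheses. Red points are higher and blue points lower at an adjusted p under 0.05, grey points did not pass, thick bars are list medians, and the grey band spans the 10th to 90th percentile of all tested genes (-0.33 to 0.28). The methyl cycle and ribosomal protein medians lie above the band, and those of the stress, hexose transporter, phosphate and wtf lists below it. The lists were chosen with earlier results of these data known, and the methyl cycle list was drawn up after the values were seen. Its place in the order is therefore not an independent result.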

How the data were processed

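Poly(A) RNA was sequenced and deposited by the authors as raw read counts per gene, whole numbers in 1 table for the series. Per the submitters' processing notes, STAR, SAMtools, DESeq2 and the genome build ASM294v2 were used. The gene annotation, strand setting and read filters are not given in the sources used here, so counts of overlapping genes cannot be told apart. Names, products and gene order came from the RefSeq annotation of another build, matched by locus identifier for 4906 of 4915 genes (9 unmatched), with 2104 overlapping another gene of the table.

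The counts were fitted in edgeR 4.0.16 (R 4.3.3, limma 3.58.1) with TMM scaling, filterByExpr and the quasi-likelihood test over 8 libraries in 3 genotypes. The contrast was K587A minus TetR-Mit1, with Benjamini-Hochberg adjustment over 4887 genes and a threshold of 0.05. The common biological coefficient of variation was 3.58%, and 28 genes were removed by the filter. Within groups, chi-square per degree of freedom between libraries was 2.75 to 6.07, so none was a duplicate. Same-numbered libraries of the groups had correlations of deviations of 0.089, -0.039 and 0.092, so the numbers were not used as pairs. The fit was run on simulated counts in which a small part of genes changed by 1.5-fold, rises and falls in equal number. Such counts hold no shift in composition, so the simulation does not test the scaling. The alternatives changed the scaling (median of ratios, or the upper quartile), the filter, the tool (DESeq2 1.42.0) or the libraries: only the 6 compared libraries, a replicate block, and each library left out.

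The members and lists were chosen with earlier results of these data known. List memberships were corrected by RefSeq product names after values were seen. The rule for named genes took the 15 largest rises and 15 largest falls at 5 CPM or more without overlap of groups, up to 6 called members of each list, any member of a list of at most 30, and mit1. Some further genes were named after their values were seen. Planned promoter motif shares were not computed.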

Additional observations from a re-analysis of the deposited data

How the results depend on the processing

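Of 202 genes named, 182 were past the threshold, and 166 of these kept direction and call in all 15 alternative fits. Requiring a 1.5-fold change left 277 genes (74 higher, 203 lower), and a 2-fold change 88 (19 higher, 69 lower). With each library left out, the total was 2269 to 2350, with 1165 to 1236 higher and 1094 to 1132 lower. Samples share only replicate numbers, so the replicate block is a hint from the data: 2573 genes were called with it, 2533 of them also without it. DESeq2 called 2326 and upper-quartile scaling 2597. With library totals alone, chosen after seeing the data, 502 genes were higher and 2515 lower, and list counts moved to 5 lower for chaperones, 7 lower for glycolysis, 7 higher and 9 lower for MBF and S-phase genes, 12 higher for membrane transporters, and 1 higher each for pheromone, phosphate and alternative carbon genes. That scaling also turned the medians of translation factors (-0.028), RNA polymerase I and III (-0.017), thiamine-repressed genes (-0.022), sterol synthesis (-0.0330) and mitochondrial carriers and import (-0.00993), and the signs of cct4 (-0.047), cct6 (-0.0067), cdc10 (-0.14), clr3 (-0.024), rpp202 (-0.042), sdh1 (-0.022), sdh2 (-0.045), swi6 (-0.11), tps1 (-0.0028) and ura2 (-0.14), by construction, since it removes the composition factor. Among the lists the text leads with, counts moved as follows on leaving out a library or with another scaling: nitrogen genes higher went to 2 with upper-quartile scaling or without TetR-Mit1 replicate 3 or K587A replicate 1 (range 1 to 2), phosphate genes higher to 1 without TetR-Mit1 replicate 2 or 3 or K587A replicate 1 (range 1 to 2), MBF genes lower to 1 without any one TetR-Mit1 library (range 1 to 2), and methyl cycle genes lower to 3 without K587A replicate 2 (range 3 to 5). Depth limits genes near 1 CPM such as ght7.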

Other observations

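The balance of higher and lower genes varied with abundance. Among the tenth of tested genes with the lowest mean CPM, 7.57% were higher and 26.4% lower in K587A. Their median log2 fold change was -0.11. The lower share there was near the 25% over all genes, and the higher share was below the 27.3% over all genes. Among the tenth with the highest mean, 67.7% were higher and 16.6% lower, with a median of 0.21, or 0.12 without cytosolic ribosomal protein genes. Deciles 2 to 8 of mean CPM had medians of -0.026 to 0.012. Genes are not independent replicates, and the part of depth or scaling in this pattern was not tested.

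Genes changed by at least 1.5-fold sometimes lay next to each other in the annotation's gene order. On the lower side, 61 of 203 such genes stood in 27 runs of adjacent genes, and on the higher side 19 of 72 stood in 8 runs. Over all tested genes 4.15% were lower and 1.51% higher by at least 1.5-fold, and an expected number of runs was not worked out. Runs were taken among tested genes, so genes removed by the filter were skipped. Some neighbours, such as rps1401 and aar2 or SPBPB10D8.01 and SPBPB10D8.02c, overlap and may share reads. The longest lower runs were 4 genes each. In one, on chromosome I, the aldo/keto reductase gene SPAC977.14c, the dienelactone hydrolase gene SPAC977.15, dak2 and SPAC977.17, a MIP superfamily gene, had log2 fold changes of -1.94, -1.32, -2.56 and -1.53. The other, on chromosome II, held tgp1, SPBC1271.08c, SPBC1271.07c and SPBC1271.05c. On the higher side the longest run was also 4 genes, SPBPB21E7.08 to SPBPB10D8.02c on chromosome II (0.58 to 1.90), followed by ura4, new25 and pmp20 on chromosome III (ura4 at 3.41). The phosphoglycerate kinase gene pgk1 and sam1, both higher, are neighbours, as are the histone genes hht1 and hhf1.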
